A study of Arabidopsis thaliana with 10 samples.

Results

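Alpha-expansins are small secreted proteins that loosen the plant cell wall, and the 10 alpha-expansin genes EXPA1, EXPA3, EXPA4, EXPA5, EXPA6, EXPA8, EXPA10, EXPA11, EXPA15 and EXPA16 were described in leaves of 5 Arabidopsis thaliana genotypes. They were picked by locus identifier from the 33602 genes of the authors' count table and belong to a family of 26 alpha-expansin genes in that table. All 10 passed the filter on low counts, as did 20334 genes in all.

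The study sequenced mRNA from leaves of untreated 4-week-old plants grown on soil, starting from total RNA of roughly 50 mg of leaf. The genotypes were wild-type Col-0, the mutant pnet2_ab, and 3 lines in the pnet2_ab background, whose labels name the transgene 35S:NTL6-SRDX in the first, 35S:NTL9-SRDX in the second and 35S:NTL12-SRDX in the third. PNET2 proteins are proteins of the inner nuclear membrane, the NTL family comprises NAC transcription factors with a membrane anchor, 35S is a promoter active in most plant cells, and SRDX is a short repression domain. There were 2 libraries per genotype, and although the series text speaks of triplicates, 2 were analysed here. Every line shares the pnet2_ab background with the mutant, and the labels do not say whether a line is 1 transformant or several, or whether leaves were pooled. The genotype field of the second NTL12 library reads NTL2, and the library was grouped by its title. The labels also do not say that libraries of a group came from separate plants, so a p-value here is set against the spread of these libraries alone, possibly a technical spread.

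Growing plant cells are held in by a wall of cellulose and matrix polysaccharides, and they enlarge when that wall yields to turgor. Proton pumps of the plasma membrane acidify the wall, and expansins, which act best at acidic pH and have no known hydrolytic activity, then let wall polymers slip past one another. In leaves, alpha-expansins are known for their part in blade and petiole growth, and brassinosteroid, gibberellin, auxin and light pathways are known to act on several of their genes.

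The libraries held from 22638465 to 28345856 counts, and the 10 genes took between 0.063% and 0.078% of them. Libraries of a group correlated at 0.979 to 0.982 on the log2 scale and differed by more than counting noise (chi-square over its degrees of freedom, 5.99 to 9.58). Leaf markers RBCS1A, LHCB1.3 and CA1 summed to 33500 CPM (counts scaled to library size with TMM factors) or more in every library, while EXPA7 and EXPA18, which mark root hairs, never passed 1 and 2 counts. NAC062, the gene named NTL6, had CPM values of 18.1 and 19.7 in its own line against 23.8 and 27.1 in pnet2_ab, and those of NTL9 were 27.7 and 22.9 in its own line against 26.5 and 25.5. NAC062 was lower in the line labelled NTL6-SRDX than in pnet2_ab (log2 difference -0.43 ± 0.13, adjusted p = 0.025), which goes against that label. This fall was not particular to that line, because NAC062 under the label NTL9-SRDX also lay below the mutant (-0.54 ± 0.13, adjusted p = 0.0044). The mutant itself exceeded wild type for this gene (0.44 ± 0.13, adjusted p = 0.012). The highest NAC062 values, 36.5 and 29.5 CPM, carried the label NTL12-SRDX, but did not differ from pnet2_ab past the threshold (0.38, adjusted p = 0.082). NTL9 did not differ past the threshold between its own line and pnet2_ab (adjusted p = 0.87), and the gene named in the NTL12 label was not checked here. Each line is therefore called by its label, and every direction given for a line is that of its label. Of 3 PNET2 family genes tested, AT3G49840 and AT5G67610 were lower and AT1G28760 was higher in pnet2_ab than in wild type, and the labels do not say which are PNET2 a and b. In whole leaves, fewer cells that express a gene and less RNA per cell cannot be told apart.

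Promoter sequences of 4 of the genes are shown because these genes carry the contrasts described next. EXPA4 and EXPA5 moved in opposite directions in the mutant, and EXPA1 and EXPA10, of which only the latter fell past the threshold in the mutant, held the same 8-base word. Each is the 250 bases upstream of the RefSeq gene start in TAIR10.1, written 5′ to 3′ on the gene's own strand. Capitals mark matches to 6 words searched on both strands. These were the G-box CACGTG, the E-box form CATGTG, the brassinosteroid response element forms CGTGTG and also CGTGCG, the TCP element GGNCCC and the TATA box TATAAA. The windows are chr2:16545747-16545996 (minus strand) for EXPA4, chr3:11013452-11013701 (minus) for EXPA5, chr1:26141476-26141725 (plus) for EXPA1 and chr1:9259182-9259431 (plus) for EXPA10.
EXPA4: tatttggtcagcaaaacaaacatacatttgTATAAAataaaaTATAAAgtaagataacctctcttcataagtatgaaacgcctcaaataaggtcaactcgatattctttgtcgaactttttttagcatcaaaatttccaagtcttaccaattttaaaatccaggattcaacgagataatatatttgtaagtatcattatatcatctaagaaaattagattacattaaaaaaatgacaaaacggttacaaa
EXPA5: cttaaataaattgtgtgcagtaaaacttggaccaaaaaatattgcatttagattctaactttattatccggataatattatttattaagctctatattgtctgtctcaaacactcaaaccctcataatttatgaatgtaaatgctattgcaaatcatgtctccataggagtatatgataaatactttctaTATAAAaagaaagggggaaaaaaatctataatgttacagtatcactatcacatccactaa
EXPA1: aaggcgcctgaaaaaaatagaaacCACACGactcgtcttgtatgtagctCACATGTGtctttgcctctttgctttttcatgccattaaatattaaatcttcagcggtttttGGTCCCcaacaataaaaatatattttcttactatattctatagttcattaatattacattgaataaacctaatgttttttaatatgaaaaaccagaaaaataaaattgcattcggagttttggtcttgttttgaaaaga
EXPA10: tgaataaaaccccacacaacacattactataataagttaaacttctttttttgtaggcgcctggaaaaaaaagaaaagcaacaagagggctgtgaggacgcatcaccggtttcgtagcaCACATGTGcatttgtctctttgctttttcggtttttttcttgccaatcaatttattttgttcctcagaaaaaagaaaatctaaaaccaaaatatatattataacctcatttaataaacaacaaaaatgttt
EXPA4 held TATAAA at 220 and 208 bases before the gene start and EXPA5 held it at 60, and neither held any of the other words. EXPA1 and EXPA10 both held CACATGTG, which contains CATGTG on each strand, with the CATGTG of the plus strand at 199 and 129 bases before the start. CACATGTG was picked after the promoters had been seen, and 103 of 27443 promoters of this length (0.375%) held it. These 2 genes also shared a run of 14 bases, ctctttgctttttc, at 186 and 116 bases before the start. Over the 45 pairs of the 10 genes the median longest run was 9 bases, and the next longest was 12. The run lay just after CACATGTG at the same spacing in both promoters, and the coding sequences of these 2 genes were 78.7% identical. The word and the run are therefore not counted as separate matches. Over all 10 promoters, TATAAA occurred in 6 (47.3% of all promoters), CATGTG in 3 (11.1%), CGTGTG in 2 (5.37%) and GGNCCC in 1 (7.35%). CACGTG and CGTGCG, present in 6.49% and 1.57% of all promoters, occurred in none of the 10 windows. A match here is a string of letters and not a bound site.

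In wild-type leaves the 10 genes spanned group means from 14.6 to 142 FPKM (fragments per kilobase of gene, scaled to library size), a level per length. On the authors' FPKM scale, EXPA1, known for a part in guard cell walls and stomatal opening, had 151 and 134 FPKM and was the highest of the 10 in every library of the study. EXPA8, a gene whose promoter is known to be bound by the growth factor HBI1, followed with 105 and 92.6 FPKM, and EXPA6 with 83.2 and 87.2 FPKM. Each of these 3 stood clear of the next in wild type, with no overlap between libraries. A middle group held EXPA11 at 47.6 and 46.5 FPKM, EXPA5 at 46.3 and 43 FPKM, EXPA3 at 42 and 44.4 FPKM and EXPA4 at 31 and 31.1 FPKM, and within it only EXPA5 and EXPA3 overlapped. EXPA10 had 29.3 and 23.7 FPKM, and EXPA16 (15.3 and 14.1 FPKM) and EXPA15 (16.1 and 13.1 FPKM) were lowest and overlapped each other. Among all 33602 genes, 2.07% stood above EXPA1 in mean FPKM over the libraries and 19% above EXPA15. The plot of levels by library shows each gene on its own CPM axis.

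**Figure D1:**
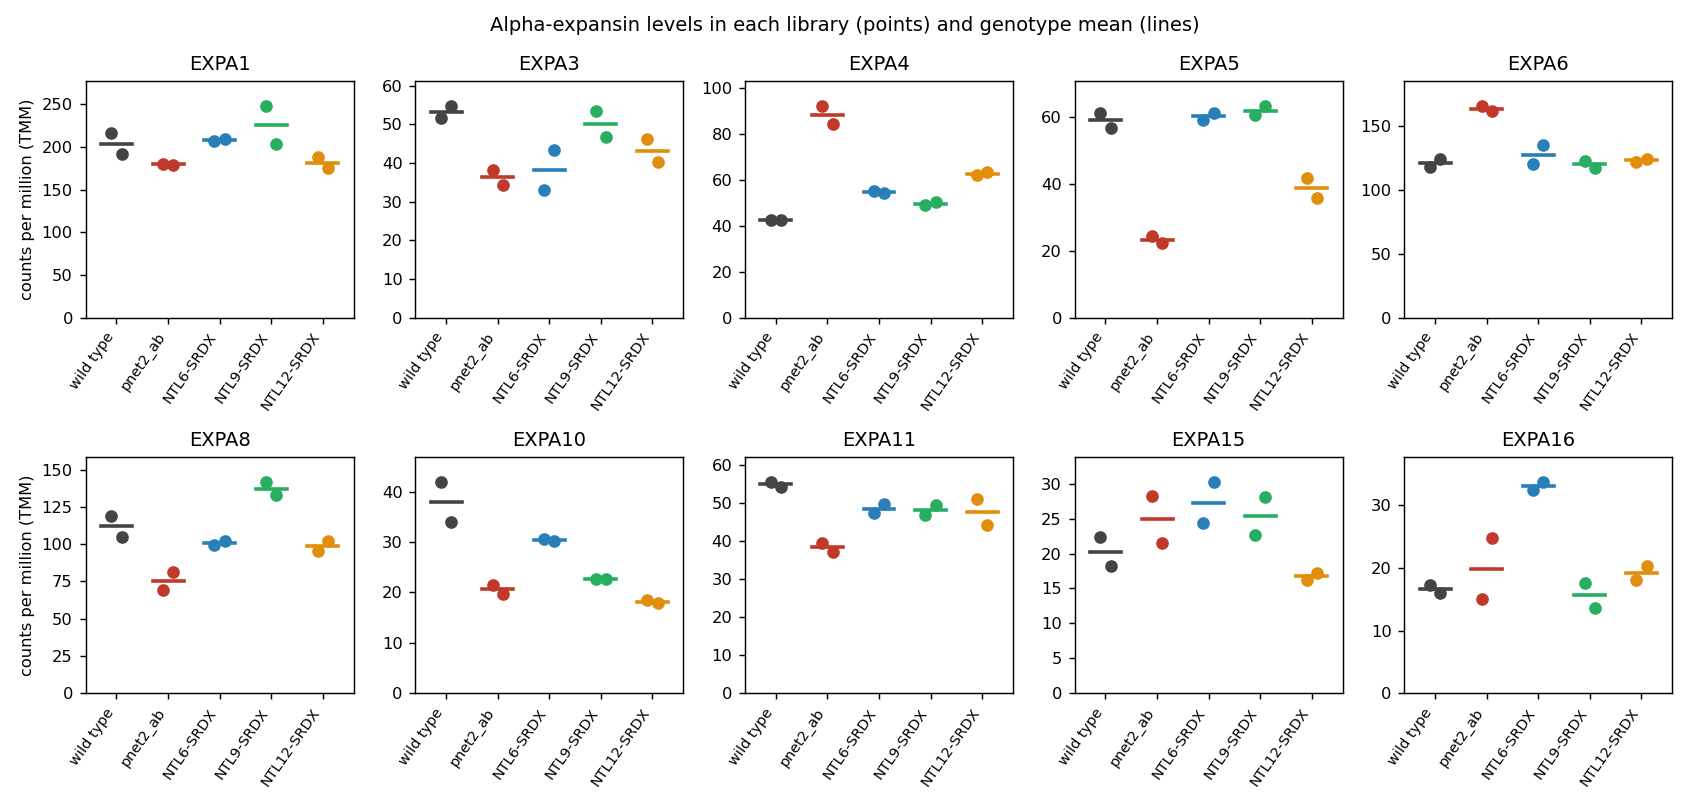
Level of each of the 10 alpha-expansin genes in CPM with TMM scaling (vertical axes from 0, a separate scale per gene) in the 5 genotypes (horizontal axes); points are single libraries and lines are means of 2. EXPA4 peaked in pnet2_ab at 92 and 84.5 CPM, where EXPA5 was lowest at 24.4 and 22.2 CPM.

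In pnet2_ab, 7 of the 10 genes differed from wild type, 5 lower and 2 higher, against 34% of all tested genes that passed the same threshold of 0.05 on the adjusted p (16.8% lower and 17.2% higher). Shares over all tested genes, here and below, take in genes of every level past the filter, and the 10 genes were not matched to them. The 10 were also chosen with earlier results of these data known. EXPA5, EXPA10, EXPA8, EXPA3 and EXPA11 fell and EXPA4 and EXPA6 rose. EXPA5 and EXPA4 changed most, EXPA5 falling 2.52-fold and EXPA4 rising 2.08-fold. The median log2 change over the 10 genes was -0.35, beside 0.035 over all tested genes.

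EXPA5 (AT3G29030, chromosome 3, 11011308 to 11013358, minus strand), known for a part in brassinosteroid-dependent growth, had CPM values of 61 and 56.8 in wild type, and of 24.4 and 22.2 in pnet2_ab. Both mutant libraries lay far below both wild-type libraries, and the gene fell by 1.34 ± 0.10 (log2 fold change ± SE, adjusted p = 1e-09 by edgeR's quasi-likelihood test with Benjamini-Hochberg adjustment, as for every adjusted p here). EXPA10 (AT1G26770, chromosome 1, 9259605 to 9261313, plus strand), whose level is known to alter leaf size, stood at 41.9 and 33.9 CPM in the wild-type libraries against 21.4 and 19.8 CPM in the mutant. Its libraries did not overlap either, and it fell by 0.88 ± 0.12 (adjusted p = 5.2e-06). EXPA8 (AT2G40610, chromosome 2, 16948863 to 16950557, minus strand) had 119 and 105 CPM against 69.2 and 81.7 CPM, with both mutant libraries lower, and fell by 0.57 ± 0.089 (adjusted p = 2.7e-05).

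EXPA3 (AT2G37640, chromosome 2, 15787705 to 15789853, minus strand) was one of the genes, with EXPA1, EXPA5 and EXPA10, that others have repressed together to study leaf growth. It had 51.7 and 54.6 CPM in the wild-type libraries against 38.2 and 34.4 CPM in the mutant, again without overlap, and fell by 0.55 ± 0.12 (adjusted p = 0.00092). EXPA11 (AT1G20190, chromosome 1, 6998489 to 6999817, minus strand) stood at 55.5 and 54.3 CPM in the wild-type libraries against 39.5 and 37.2 CPM in the mutant. Here too the mutant libraries were lower than both wild-type libraries, and the gene fell by 0.52 ± 0.095 (adjusted p = 0.00019).

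EXPA4 (AT2G39700, chromosome 2, 16543832 to 16545584, minus strand) was at 42.4 and 42.6 CPM in the wild-type libraries against 92 and 84.5 CPM in the mutant. Both mutant libraries lay far above both wild-type libraries, and the gene rose by 1.05 ± 0.085 (adjusted p = 2.9e-09). EXPA6 (AT2G28950, chromosome 2, 12431341 to 12433595, minus strand) had 118 and 124 CPM in the wild-type libraries against 165 and 162 CPM in the mutant. The groups were again apart, and it rose by 0.43 ± 0.076 (adjusted p = 9.7e-05). None of these 7 calls was lost in any of the 16 alternative settings.

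EXPA1, EXPA15 and EXPA16 did not pass. EXPA1 (AT1G69530, chromosome 1, 26141836 to 26143500, plus strand) had 216 and 192 CPM in the wild-type libraries against 180 and 179 CPM in the mutant. The mutant libraries were lower without overlap, and the difference was -0.18 (95% interval -0.36 to -0.01, adjusted p = 0.1), which passed without the second wild-type library (-0.28) or without either library of the line labelled NTL9-SRDX. EXPA15 (AT2G03090, chromosome 2, 916854 to 918643, minus strand) had 22.4 and 18.1 CPM against 28.3 and 21.6 CPM, which overlap (0.30, adjusted p = 0.14), and passed without the second mutant library (0.48, adjusted p = 0.033). EXPA16 (AT3G55500, chromosome 3, 20574831 to 20576182, minus strand) had 17.4 and 16 CPM in the wild-type libraries against 15 and 24.8 CPM in the mutant. The mutant libraries lay on either side of wild type, and the difference of 0.25 (adjusted p = 0.31) ran from -0.15 without the second to 0.58 (adjusted p = 0.0087) without the first. In all, 8 of the 10 genes had libraries that did not overlap between these groups, as did 64.8% of all tested genes.

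Markers of cell types and leaf age moved between the same groups. All 3 leaf markers were lower in pnet2_ab, their summed level running from 51300 to 55500 CPM in wild type and from 33500 to 34900 CPM in the mutant. Both epidermis markers, ATML1 and PDF2, were lower, at 239 to 256 CPM summed against 182 to 188 CPM. Of the senescing-leaf markers, SEN1 was higher, at 10.6 and 6.64 CPM in wild type against 45.3 and 25.7 CPM in the mutant. SAG12 was at 0 in both wild-type libraries and at 6.82 and 0 CPM in the mutant, so that its call (adjusted p = 0.0027) rested on 1 library and the groups overlapped. The guard cell list (KAT1, FAMA, MYB60) ran from 54.7 to 61.4 CPM in wild type and from 41.3 to 42.2 CPM in the mutant, with 1 of 3 called lower, and the dividing-cell list from 73.3 to 73.7 CPM and from 60.1 to 66.4 CPM, also with 1 of 3 lower. In the line labelled NTL12-SRDX, SEN1 stood at 43.6 and 42.1 CPM. Its values were 5.27 and 6.10 CPM under the label NTL6-SRDX, and 10.2 and 8.31 CPM under NTL9-SRDX. SAG12 did not follow SEN1 here. It was at 1.31 and 0.92 CPM under NTL6-SRDX, and at 0 in every library labelled NTL9-SRDX or NTL12-SRDX. The guard cell markers rose against pnet2_ab in the lines, 3 of 3 in each of the lines labelled NTL6-SRDX and NTL9-SRDX and 1 of 3 in the line labelled NTL12-SRDX, with sums of 58.6 to 66.6 CPM, 57.4 to 65.7 CPM and 51.6 to 58.8 CPM. Of the 3 leaf markers 2, 2 and 1 rose in these lines, which summed to 36500 to 37800 CPM, 37800 to 44100 CPM and 37700 to 39400 CPM. Of 3 tested root markers 2, 1 and 1 fell, from sums of 140 to 170 CPM in pnet2_ab to 49.6 to 60.2 CPM, 62 to 130 CPM and 55 to 61.5 CPM, where wild type had 96 to 169 CPM. Between pnet2_ab and wild type 1 of the 3 rose and 1 fell. NRT2.1 stood at 0.45 and 0.223 CPM in wild type and at 5.97 and 3.02 CPM in the mutant. CASP1 stood at 0.85 and 0.713 CPM in wild type and at 0.0326 and 0 CPM in the mutant. PYK10, at 94.7 and 168 CPM and at 133.8 and 167.5 CPM in these groups, held most of each sum. Of 4 tested flower markers 1 rose in pnet2_ab, with 2.15 to 2.18 CPM summed in wild type and 7.87 to 11.3 CPM in the mutant, and 2, 1 and 0 fell in the lines. Both epidermis markers rose in the lines labelled NTL6-SRDX and NTL9-SRDX and 1 of them in the line labelled NTL12-SRDX, with sums of 244 to 259 CPM, 257 to 268 CPM and 213 to 228 CPM in that order. No marker of these lists was at 0 in all libraries, and the part of these differences in the expansin levels was not tested.

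Each line was then compared with pnet2_ab, which asks how the labelled line differed from the mutant whose background it shares. The part of the transgene in such a difference was not tested. These 3 comparisons share the pnet2_ab libraries with each other and with the comparison of pnet2_ab and wild type, so a high or low mutant library enters all of them, with opposite sign in the latter. EXPA5 and EXPA8 were higher, and EXPA4 and EXPA6 were lower, in each of the 3 lines than in pnet2_ab. The plot of changes in pnet2_ab and in each line gives all values.

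In the line labelled NTL6-SRDX, 7 of the 10 genes differed from pnet2_ab, against 18.1% of all tested genes (8.75% higher and 9.35% lower), and in 8 the libraries did not overlap, as in 57.9% of all tested genes. EXPA5, EXPA16, EXPA10, EXPA8 and EXPA11 rose and EXPA4 and EXPA6 fell, with a median log2 change of 0.28 over the 10 genes beside -0.0018 over all tested genes. EXPA5 had 59.1 and 61 CPM in that line, both far above the mutant libraries and within the wild-type range of 56.8 to 61 CPM in these rounded values, and rose by 1.36 ± 0.10 (adjusted p = 2.8e-09). EXPA4 had 55.1 and 54.1 CPM, below both mutant libraries, and fell by 0.69 ± 0.083 (adjusted p = 3e-06). EXPA10 had 30.7 and 30.2 CPM, above both mutant libraries, and rose by 0.56 ± 0.12 (adjusted p = 0.0019). EXPA8 had 99.6 and 102 CPM, also without overlap, and rose by 0.42 ± 0.089 (adjusted p = 0.0017). These 4 calls held in all 16 alternative settings.

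The other calls in that line depended on single libraries. EXPA16 had 32.5 and 33.7 CPM, above both mutant libraries, and rose by 0.74 ± 0.17 (adjusted p = 0.0037), but without the first mutant library, at 15 CPM, the difference was 0.42 (adjusted p = 0.092). EXPA6 had 120 and 135 CPM, lower than the mutant without overlap, and fell by 0.36 ± 0.075 (adjusted p = 0.0015), and without the first library of the line by 0.28 (adjusted p = 0.058). EXPA11 had 47.3 and 49.7 CPM, above both mutant libraries, and rose by 0.34 ± 0.095 (adjusted p = 0.015), which did not pass with the second library of either group left out (adjusted p up to 0.12). EXPA1 had 207 and 210 CPM and stood at 0.21 (adjusted p = 0.086), above the mutant without overlap, and passed in 4 settings, among them the fit of these 2 groups alone. EXPA3 at 32.9 and 43.2 CPM and EXPA15 at 24.3 and 30.2 CPM overlapped the mutant libraries (adjusted p = 0.76 and 0.63).

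In the line labelled NTL9-SRDX, 7 of the 10 genes differed from pnet2_ab, against 22.3% of all tested genes (11.6% higher and 10.8% lower), and in 8 the libraries did not overlap, as in 59.4% of all tested genes. EXPA5, EXPA8, EXPA3, EXPA1 and EXPA11 rose and EXPA4 and EXPA6 fell, and the median was 0.23 beside -0.011 over all tested genes. EXPA5 had 60.5 and 63.1 CPM, far above the mutant, and rose by 1.41 ± 0.10 (adjusted p = 1.7e-09). EXPA8 had 142 and 133 CPM, the highest 2 libraries of the 10 for this gene, and rose by 0.87 ± 0.089 (adjusted p = 2.8e-07). EXPA4 had 48.9 and 50.3 CPM, below both mutant libraries, and fell by 0.83 ± 0.084 (adjusted p = 2.2e-07). EXPA6 had 122 and 117 CPM, again lower without overlap, and fell by 0.45 ± 0.075 (adjusted p = 0.00012). These 4 calls held in all 16 alternative settings.

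In that same line EXPA3 had 53.5 and 46.7 CPM, above both mutant libraries, and rose by 0.46 ± 0.12 (adjusted p = 0.0062), a call lost without its first library (0.37, adjusted p = 0.077) or the second mutant library. EXPA1 had 248 and 203 CPM, also above both, and rose by 0.33 ± 0.085 (adjusted p = 0.0069), and without the first of these libraries the difference was 0.19 (adjusted p = 0.18). EXPA11 had 46.9 and 49.5 CPM and rose by 0.33 ± 0.095 (adjusted p = 0.015), with no overlap, which did not pass with the second library of either group left out (adjusted p up to 0.11). EXPA10 stood at 22.7 and 22.6 CPM, above both mutant libraries by a small margin, with a difference of 0.14 (adjusted p = 0.48, 95% interval -0.12 to 0.39). EXPA15 at 22.6 and 28 CPM and EXPA16 at 17.5 and 13.7 CPM overlapped the mutant (adjusted p = 0.95 and 0.19), and EXPA16 passed as lower, at -0.67 (adjusted p = 0.004), without the first mutant library.

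In the line labelled NTL12-SRDX, 5 of the 10 genes differed from pnet2_ab, against 6.95% of all tested genes (3.11% higher and 3.84% lower), and in 8 the libraries did not overlap, as in 49.3% of all tested genes. EXPA5 and EXPA8 rose and EXPA4, EXPA6 and EXPA15 fell, and the median was -0.015 beside -0.00026 over all tested genes. EXPA5 had 41.6 and 35.7 CPM, above the mutant libraries and below the wild-type libraries, and rose by 0.73 ± 0.10 (adjusted p = 7.2e-05). EXPA4 had 62 and 63.4 CPM, likewise between the mutant and wild type, and fell by 0.49 ± 0.083 (adjusted p = 0.00053). EXPA6 had 122 and 124 CPM, lower than the mutant without overlap, and fell by 0.41 ± 0.075 (adjusted p = 0.0013). These 3 calls held in all 16 alternative settings.

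EXPA8 had 95.1 and 102 CPM in the line labelled NTL12-SRDX, above both mutant libraries, and rose by 0.39 ± 0.089 (adjusted p = 0.0085), a call lost without the first mutant library (0.27, adjusted p = 0.15) or the second library of the line. EXPA15 had 16.2 and 17.3 CPM, below both mutant libraries, and fell by 0.58 ± 0.155 (adjusted p = 0.025), a call lost without the first mutant library (-0.37, adjusted p = 0.3) and without either library of the line. With the first mutant library or the second library of the line left out, 3 of the 10 genes passed in place of 5. EXPA11 at 50.9 and 44.3 CPM stood above the mutant without overlap (0.31, adjusted p = 0.051). EXPA10 had 18.5 and 17.9 CPM and was the one gene of the 5 lower in pnet2_ab whose mean in a line lay below the mutant mean (-0.18, adjusted p = 0.45, 95% interval -0.44 to 0.07). EXPA1 at 188 and 175 CPM and EXPA16 at 18.1 and 20.3 CPM overlapped the mutant (adjusted p = 0.94 and 0.92), and EXPA3 at 46.1 and 40.2 CPM lay above both mutant libraries (0.25, adjusted p = 0.25).

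**Figure D2:**
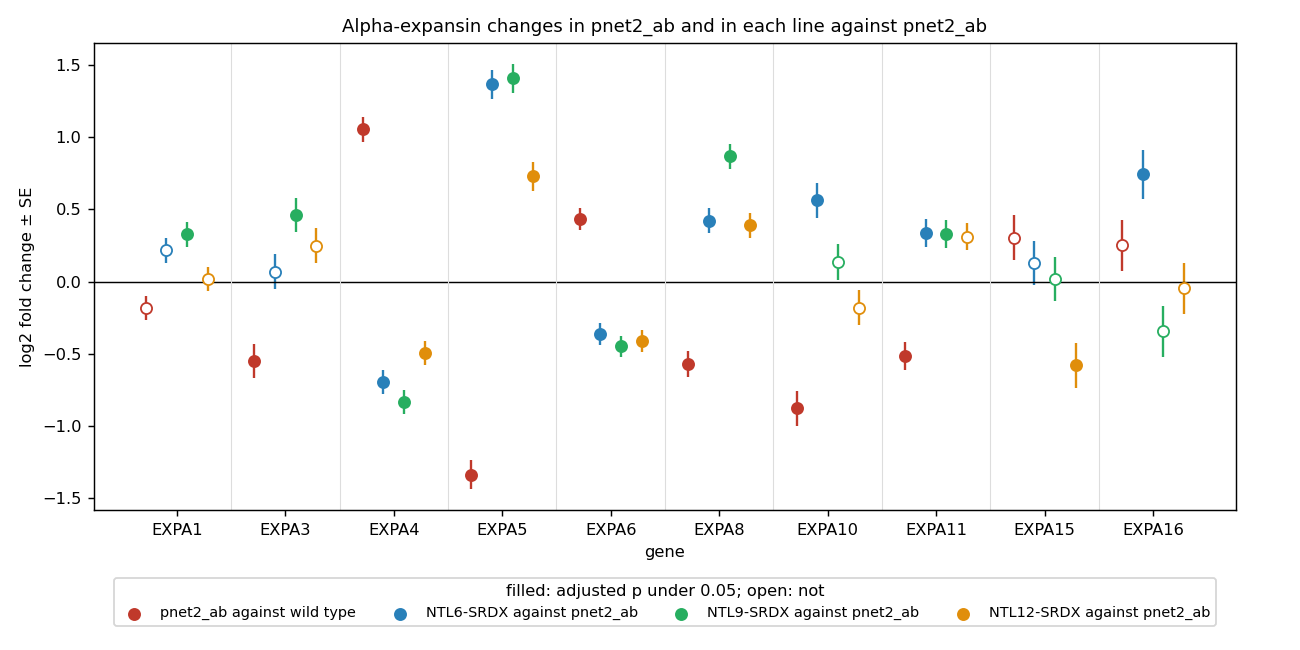
Log2 fold change (vertical axis, with bars of 1 SE) of each alpha-expansin gene (horizontal axis) in pnet2_ab against wild type and in each labelled line against pnet2_ab; filled points passed an adjusted p of 0.05 and open points did not. EXPA5 stands at -1.34 in pnet2_ab and at 1.36, 1.41 and 0.73 in the lines, and EXPA4 at 1.05 and at -0.69, -0.83 and -0.49.

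Each line was also set against wild type, with the same wild-type libraries in all comparisons. In the line labelled NTL6-SRDX, 4 of the 10 genes differed from wild type (23.5% of all tested genes did, 10.9% higher and 12.6% lower), and 7 had libraries that did not overlap (60.1%). EXPA16, at 32.5 and 33.7 CPM against 17.4 and 16 CPM in wild type, did not overlap and was higher by 0.99 ± 0.18 (adjusted p = 0.00022). EXPA4 was higher by 0.36 ± 0.086 (adjusted p = 0.0034), with 55.1 and 54.1 CPM against 42.4 and 42.6 CPM. EXPA3 was lower by a log2 difference of -0.48 ± 0.12 (adjusted p = 0.0046), which did not pass without the first library of the line (-0.30, adjusted p = 0.14). EXPA15 was at 0.43 ± 0.155 (adjusted p = 0.049), a call lost in 10 of the 16 alternative settings, DESeq2 and the other scalings among them, and without the second library of wild type or of the line (adjusted p up to 0.38 over the settings). EXPA5, EXPA6 and EXPA1 overlapped wild type, with differences of 0.03, 0.07 and 0.03.

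Between wild type and the line labelled NTL9-SRDX, 2 of the 10 genes differed (13.7% of all tested genes did, 6.29% higher and 7.43% lower), and 5 had libraries that did not overlap (53.6%). EXPA10, at 22.7 and 22.6 CPM against 41.9 and 33.9 CPM, was lower by a log2 difference of -0.74 ± 0.12 (adjusted p = 0.00021), without overlap. EXPA8, at 142 and 133 CPM against 119 and 105 CPM, was higher by 0.30 ± 0.088 (adjusted p = 0.028), which did not pass when the second wild-type library (0.20, adjusted p = 0.3) was left out, or the first library of the line, which left 1 gene. EXPA4 was at 0.22 (adjusted p = 0.096). The remaining 7 genes had an adjusted p of 0.19 or more, and EXPA5 and EXPA6 overlapped wild type with differences of 0.07 and -0.01.

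Between wild type and the line labelled NTL12-SRDX, 3 of the 10 genes differed (30.5% of all tested genes did, 14.9% higher and 15.6% lower), and 9 had libraries that did not overlap (63.6%). EXPA10, at 18.5 and 17.9 CPM, was lower than both wild-type libraries by a log2 difference of -1.06 ± 0.12 (adjusted p = 6.6e-07), the largest difference of this gene in any comparison made. EXPA5, at 41.6 and 35.7 CPM against 61 and 56.8 CPM, was lower by -0.61 ± 0.098 (adjusted p = 4.8e-05). EXPA4, at 62 and 63.4 CPM against 42.4 and 42.6 CPM, was higher by 0.56 ± 0.085 (adjusted p = 2.7e-05). All 3 calls held in every alternative setting. EXPA3 was at -0.30 (adjusted p = 0.058) and passed in 9 of the 16 settings. EXPA6 overlapped wild type, with a difference of 0.02. EXPA10 thus passed as lower than wild type in pnet2_ab and in the lines labelled NTL9-SRDX and NTL12-SRDX, and in the line labelled NTL6-SRDX it was at -0.32 (adjusted p = 0.058), with no overlap, and passed with RLE size factors and without the second wild-type library. Its estimates there ran from -0.48 to -0.17 over the settings.

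**Figure D3:**
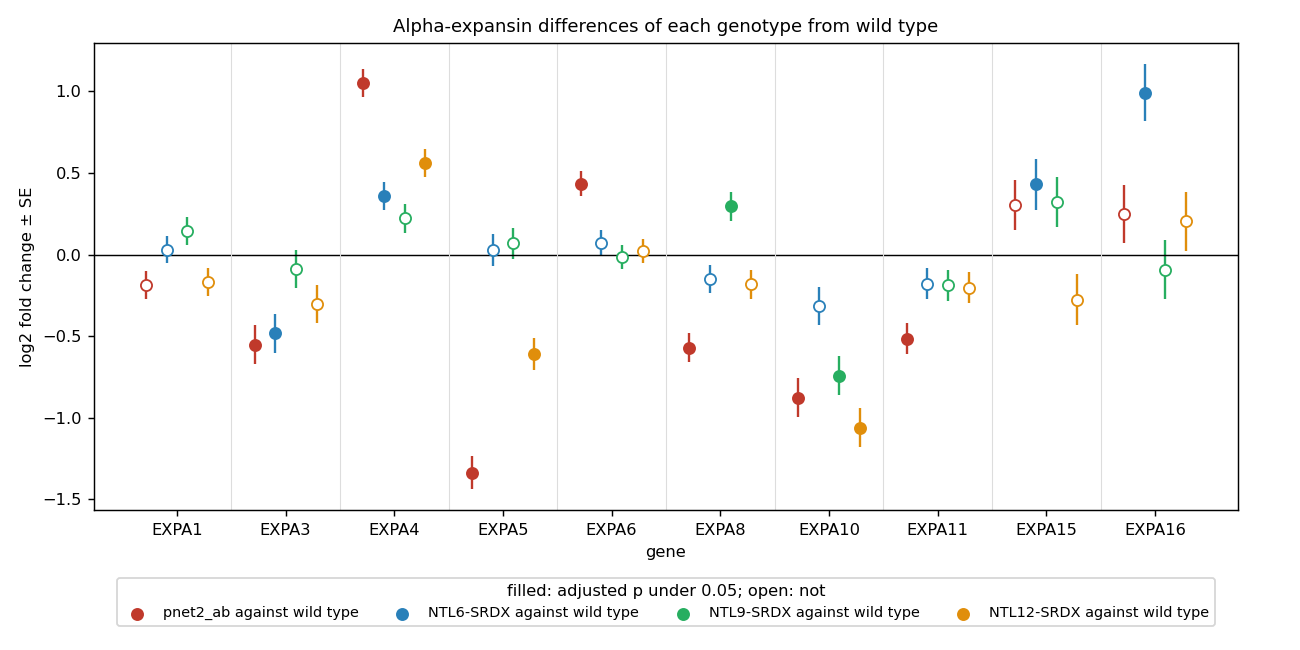
Log2 fold change (vertical axis, with bars of 1 SE) of each alpha-expansin gene (horizontal axis) in pnet2_ab and the 3 labelled lines, all against the same wild-type libraries; filled points passed an adjusted p of 0.05 and open points did not. EXPA6 is filled in pnet2_ab (0.43) and open in all lines, while EXPA10 is filled at -0.88, -0.74 and -1.06 and open at -0.32.

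In direct comparisons between the lines, EXPA1, EXPA4, EXPA5, EXPA8, EXPA10, EXPA15 and EXPA16 each passed at least once. Between the lines labelled NTL6-SRDX and NTL9-SRDX, 3 of the 10 genes differed, against 6.06% of all tested genes (1.95% higher and 4.11% lower in the former), and 5 had libraries that did not overlap (47.6%). EXPA16 was higher in the former by 1.09 ± 0.175 (adjusted p = 0.00041), EXPA8 was lower by a log2 difference of -0.44 ± 0.088 (adjusted p = 0.0028), and EXPA10 was higher by 0.43 ± 0.12 (adjusted p = 0.036), which passed in none of the fits that left out 1 of these 4 libraries (adjusted p up to 0.23). EXPA3 was at -0.39 (adjusted p = 0.052), lower in the former without overlap. It passed in 6 of the 16 settings, among them no low-count filter and the fits without 1 library of wild type or pnet2_ab. Its estimates ran from -0.61 to -0.21 over the settings. EXPA5 did not differ past the threshold, with a 95% interval of -0.24 to 0.16.

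Against the line labelled NTL12-SRDX, the line labelled NTL6-SRDX had 4 of the 10 genes higher and none lower (17.5% of all tested genes differed, 8.99% higher and 8.46% lower), and 6 had libraries that did not overlap (57.1%). EXPA5 was higher by 0.64 ± 0.097 (adjusted p = 6.4e-05), with 59.1 and 61 CPM against 41.6 and 35.7 CPM. EXPA10 was higher by 0.74 ± 0.12 (adjusted p = 0.00013), EXPA16 by 0.79 ± 0.17 (adjusted p = 0.0023) and EXPA15 by 0.71 ± 0.155 (adjusted p = 0.0025), the last lost without the second library labelled NTL6-SRDX (0.54, adjusted p = 0.063). All 4 had both libraries of the former above both of the latter.

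The line labelled NTL9-SRDX differed from the line labelled NTL12-SRDX in 5 of the 10 genes, against 16.3% of all tested genes (9.22% higher and 7.07% lower), and 8 had libraries that did not overlap (55.4%). EXPA5 was higher in the former by 0.68 ± 0.097 (adjusted p = 3.6e-05) and EXPA8 by 0.48 ± 0.088 (adjusted p = 0.00053), both without overlap. EXPA15 was higher by 0.60 ± 0.156 (adjusted p = 0.01), EXPA1 by 0.31 ± 0.085 (adjusted p = 0.014), and EXPA4 was lower by a log2 difference of -0.34 ± 0.084 (adjusted p = 0.0075). EXPA1 and EXPA4 lost the call without the first library labelled NTL9-SRDX or the second labelled NTL12-SRDX, which left 3 genes, and EXPA15 lost it without the second labelled NTL9-SRDX or the first labelled NTL12-SRDX. Over the 10 comparisons, EXPA4, EXPA5 and EXPA8 each passed in 7 and EXPA1 in 2.

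On the FPKM scale the summed levels of the 10 genes in wild type were 567 and 530 and the pnet2_ab sums 503 and 499.9. The sums were 535 and 565, 592 and 551, and 498 and 484 in the lines labelled NTL6-SRDX, NTL9-SRDX and NTL12-SRDX. Relative to wild type the group means were 0.914 in pnet2_ab and 1, 1.04 and 0.895 in these lines, and these sums were not tested. EXPA1 made up 25% to 27.2% of the sum in each group. EXPA4 made up 5.67% in wild type and 12.8% in pnet2_ab, EXPA6 15.6% and 23%, EXPA5 8.15% and 3.52%, and EXPA8 18% and 13.3%. The ratio of EXPA4 to EXPA5 was 0.669 and 0.723 in the wild-type libraries against 3.63 and 3.67 in those of pnet2_ab. It was 0.897 and 0.854, 0.778 and 0.767, and 1.44 and 1.71 in the lines labelled NTL6-SRDX, NTL9-SRDX and NTL12-SRDX. Per length, EXPA4 was thus the lower of these genes in wild type and in the lines labelled NTL6-SRDX and NTL9-SRDX, and the higher in pnet2_ab and in the line labelled NTL12-SRDX.

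**Figure D4:**
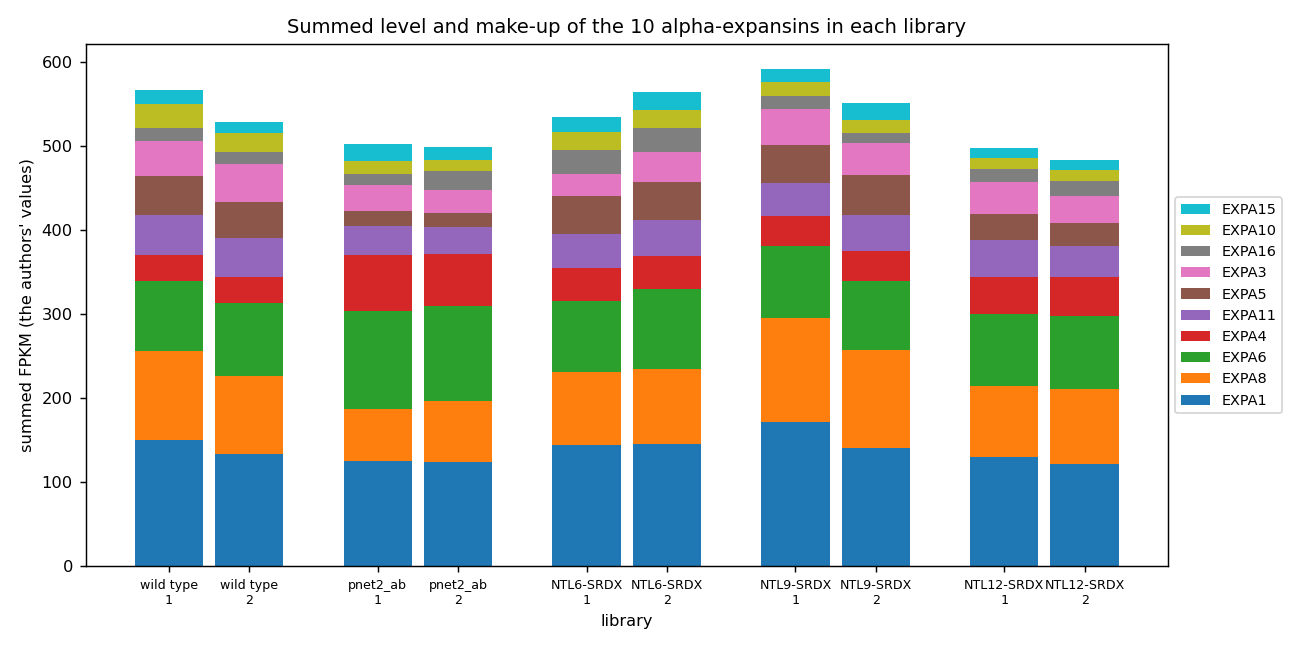
Summed FPKM of the 10 alpha-expansin genes (vertical axis, from 0) in each of the 10 libraries (horizontal axis), with each gene's own FPKM as a coloured segment in the order of the key. The totals run from 484 to 592 FPKM, and in pnet2_ab the EXPA4 and EXPA6 segments are thicker and the EXPA5 segment thinner than in wild type.

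The order of the members below EXPA1 changed with genotype. In pnet2_ab EXPA6 was second at 116 and 114 FPKM, clear of EXPA8, while EXPA8 at 61.2 and 72.1 FPKM and EXPA4 at 67.2 and 61.6 FPKM overlapped in the places after it. EXPA5 was at 18.5 and 16.8 FPKM in pnet2_ab, where it overlapped EXPA15 at 20.4 and 15.5 FPKM and EXPA16 at 13.3 and 21.9 FPKM. In the lines labelled NTL6-SRDX and NTL12-SRDX, EXPA6 and EXPA8 overlapped, and in the line labelled NTL9-SRDX EXPA8 at 124 and 117 FPKM stood clear of EXPA6 at 85.6 and 81.9 FPKM. Coding sequences of the 10 genes were 58.6% to 81.1% identical over 45 pairs, with EXPA4 and EXPA16 the most alike pair. The longest shared run, 33 bases, was between EXPA10 and EXPA15, and no member overlapped another gene in the authors' annotation. How reads matching more than 1 gene were counted is not given in the sources used here.

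For the 2 members with the highest mean FPKM, the genes most alike in pattern over the 10 libraries were sought among 6853 genes with a symbol and a mean of at least 5 CPM. For EXPA1 these were GCP2 (Pearson r of log2 CPM 0.932), AXR4, needed for placing an auxin influx carrier (0.893), and BAM2, a receptor kinase gene related to CLAVATA1 (0.887). For EXPA8 they were MES12, a methylesterase family gene (0.982), VTC2, which acts in ascorbate synthesis (0.965), and SPA1, a partner of the light signalling repressor COP1 (0.96). Among the other members, EXPA5 had the highest r with EXPA8 (0.824) and EXPA4 the lowest (-0.831). These libraries come in 5 genotypes of 2 libraries, so the values mix shared differences between genotypes with shared spread within them, and carry no p. Group means of GCP2 ran only from 17.6 to 19.9 CPM. In the line labelled NTL9-SRDX its libraries stood at 21 and 18.9 CPM, where those of EXPA1 stood at 248 and 203 CPM.

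Counts of genes called in the lists that follow are to be read against all tested genes. Of these, 17.2% were higher and 16.8% lower in pnet2_ab than in wild type. Against pnet2_ab, 8.75% were higher and 9.35% lower in the line labelled NTL6-SRDX, 11.6% and 10.8% in the line labelled NTL9-SRDX, and 3.11% and 3.84% in the line labelled NTL12-SRDX.

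Of the 16 other alpha-expansin genes in the table, 6 passed the filter on low counts. The root-hair genes EXPA7 and EXPA18 and 8 others did not. Only EXPA20 differed in a main comparison, higher in pnet2_ab than in wild type by 1.62 ± 0.575 (adjusted p = 0.033) at 1.03 and 0.381 FPKM against 2.65 and 1.64 FPKM, and leaving out the second wild-type library or the first mutant library ended the call. EXPA9 and EXPA13, the highest of the rest, had at most 11.5 FPKM and adjusted p of 0.63 and 0.43 in that comparison. The median log2 change of the 6 there was 0.23, beside 0.035 over all tested genes. In the lines against pnet2_ab the medians were 0.17, -0.097 and -0.20 in the order NTL6-SRDX, NTL9-SRDX and NTL12-SRDX, and none of the 6 passed by edgeR or DESeq2, nor at an unadjusted p under 0.05 by edgeR (0 of 6 in each).

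The beta-expansins and expansin-like genes, the other branches of the superfamily, had 6 tested members of 10. In pnet2_ab 2 rose and 2 fell (list median -0.055). EXLA1, an expansin-like gene, had 5.55 and 10.9 CPM in the wild-type libraries against 34.9 and 42.6 CPM in the mutant, without overlap, and rose by 2.22 ± 0.25 (adjusted p = 3.2e-07). EXLA2 rose by 1.01 ± 0.23 (adjusted p = 0.0016), and EXPB1, a beta-expansin gene, fell by 1.08 ± 0.19 (adjusted p = 0.00011), from 10.5 and 13.7 CPM to 5.91 and 5.58 CPM. EXLB1 fell by 0.73 ± 0.2 (adjusted p = 0.007), a call lost without the first mutant library. Against pnet2_ab, 2 rose and 3 fell in the line labelled NTL6-SRDX, 2 rose and none fell in the line labelled NTL9-SRDX, and 1 rose and 1 fell in the line labelled NTL12-SRDX (medians -0.53, -0.068 and 0.015). With 1 library left out these counts of 5, 2 and 2 ran from 3 to 5, 1 to 3 and 1 to 2. EXPB1 had 13.1 and 14.3 CPM, 18.1 and 16.9 CPM, and 5.84 and 8.07 CPM in these lines, and rose by 1.25 ± 0.19 and 1.60 ± 0.19 in the lines labelled NTL6-SRDX and NTL9-SRDX (adjusted p = 4.4e-05 and 1.4e-06). It was at 0.27 (adjusted p = 0.48) in the line labelled NTL12-SRDX.

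Plasma membrane proton pumps, which acidify the wall in which expansins act, had 10 tested genes, of which 3 rose and 1 fell in pnet2_ab (list median 0.024). The main pump genes AHA1 and AHA2 were at 573 and 544 CPM and at 228 and 230 CPM in wild type, and at 597 and 621 CPM and at 239 and 251 CPM in pnet2_ab, and neither passed, though both mutant libraries were above wild type in each gene (adjusted p = 0.14 and 0.3). AHA4 rose by 2.24 ± 0.34 (adjusted p = 2.2e-05) from a mean of 1.22 CPM, and AHA11 fell by 0.41 ± 0.082 (adjusted p = 0.00046) from a mean of 115 CPM. AHA9 was at 0 and 0.045 CPM in wild type, that is at most 1 count, and at 4.99 and 2.65 CPM in pnet2_ab (adjusted p = 1.3e-07). AHA8 rose by 0.49 ± 0.16 (adjusted p = 0.02), which leaving out the second wild-type or the first mutant library undid. Against pnet2_ab, AHA4 fell by 1.51 ± 0.32 in the line labelled NTL6-SRDX (adjusted p = 0.0018), the one call of the list there. In the line labelled NTL9-SRDX 2 genes fell, AHA4 and AHA2, and in the line labelled NTL12-SRDX 1 fell, AHA2, at 201 and 197 CPM (-0.30 ± 0.068, adjusted p = 0.0077), and each of these 3 calls was lost without 1 or another single library. The list medians in the lines were -0.13, -0.048 and -0.038.

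Cellulose synthesis genes, 12 tested, had 5 lower and none higher in pnet2_ab (list median -0.21). CESA3 and CESA5, subunits of the cellulose synthase of growing walls, fell by 0.30 ± 0.064 (adjusted p = 0.00074) and 0.33 ± 0.075 (adjusted p = 0.0014). The CPM values of CESA5 were 149 and 156 for wild type, 117 and 125 for pnet2_ab, and 169 and 185, 187 and 183, and 137 and 128 in the lines labelled NTL6-SRDX, NTL9-SRDX and NTL12-SRDX. Against pnet2_ab it rose by 0.55 ± 0.075 (adjusted p = 1.6e-05) and 0.61 ± 0.075 (adjusted p = 2.8e-06) in the first 2 of these lines. In those lines 4 of 12 genes rose and none fell, and in the line labelled NTL12-SRDX none passed by edgeR or DESeq2, with 1 at an unadjusted p under 0.05 by edgeR. The list medians in the lines were 0.24, 0.21 and 0.11. With 1 library left out, the count in pnet2_ab ran from 3 to 7, 3 without either mutant library, and that in the line labelled NTL6-SRDX from 2 to 4, 2 without its first library or the first of pnet2_ab.

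Among 31 tested growth transcription factor genes, 7 rose and 7 fell in pnet2_ab (list median 0.17). PRE1, a small growth-promoting bHLH gene, had 15.8 and 19.8 CPM in the wild-type libraries against 3.98 and 5.87 CPM in the mutant, and fell by 1.86 ± 0.24 (adjusted p = 1.9e-06). It stayed between 3.41 and 7.58 CPM in the 3 lines. TCP4, which limits leaf cell proliferation, fell by 0.46 ± 0.081 (adjusted p = 0.00012), while the phytochrome-interacting factor genes PIF3 and PIF5 rose by 0.94 ± 0.13 (adjusted p = 6.1e-06) and 0.46 ± 0.082 (adjusted p = 0.00015). GRF3, a growth-regulating factor gene, fell against pnet2_ab by 0.99 ± 0.15 (adjusted p = 5.8e-05) in the line labelled NTL6-SRDX and by 0.87 ± 0.15 (adjusted p = 0.00016) in the line labelled NTL9-SRDX. In these lines 2 of the list rose, with 4 and 6 lower, and in the line labelled NTL12-SRDX none passed by edgeR, with 6 at an unadjusted p under 0.05 and 1 passing by DESeq2. The medians in the lines were -0.10, -0.11 and 0.013. The 6 calls in the line labelled NTL6-SRDX became 3 without either of its libraries, and the 8 in the line labelled NTL9-SRDX became 4 without its second library and 5 without either library of pnet2_ab.

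Hormone genes moved in both directions. Of 10 brassinosteroid genes 3 rose and 1 fell in pnet2_ab (list median 0.043), BRI1, the hormone receptor, rising by 0.34 ± 0.075 (adjusted p = 0.0011) and the biosynthesis gene DWF4 falling by 0.69 ± 0.15 (adjusted p = 0.0013). Against pnet2_ab, 4, 5 and 2 of these genes fell in the lines labelled NTL6-SRDX, NTL9-SRDX and NTL12-SRDX and none rose (medians -0.41, -0.27 and -0.054). With 1 library left out these counts ran from 2 to 5, 2 to 5 and 0 to 2: the 4 became 2 without the second library of pnet2_ab or of the line, the 5 became 2 or 3 without any 1 of the 4 libraries compared, and the 2 became 0 without the first library of the line. CPD, another biosynthesis gene, had 221 and 210 CPM in pnet2_ab against 144 and 155 CPM and 152 and 166 CPM in the lines labelled NTL6-SRDX and NTL9-SRDX, falling by 0.53 ± 0.081 (adjusted p = 6.2e-05) and 0.44 ± 0.081 (adjusted p = 0.00034). Of 11 gibberellin genes 3 rose and 3 fell in pnet2_ab (list median -0.14), and GID1B, a gibberellin receptor gene, went from 1.85 and 2.45 CPM to 13.2 and 12.8 CPM, rising by 2.59 ± 0.30 (adjusted p = 4.6e-07). In the lines labelled NTL6-SRDX and NTL9-SRDX 3 rose and 3 fell, GID1B falling by 1.72 ± 0.27 and 1.44 ± 0.27 (adjusted p = 9.4e-05 and 0.00038). The 6 calls in the line labelled NTL6-SRDX became 3 without the first library of pnet2_ab and 2 without the second of the line. None passed in the line labelled NTL12-SRDX by edgeR (2 at an unadjusted p under 0.05) or DESeq2. The medians in the lines were 0.16, 0.22 and 0.0067. Of 13 cell division genes, 2 fell in pnet2_ab (list median -0.24), the cyclin gene CYCD3;2 by 0.52 ± 0.10 (adjusted p = 0.00035) and KN by 0.45 ± 0.115 (adjusted p = 0.0044), the latter lost without the second mutant library. No cell division gene passed in the lines labelled NTL6-SRDX and NTL9-SRDX by edgeR (1 and 0 at an unadjusted p under 0.05) or DESeq2, and CYCA2;3 rose in the line labelled NTL12-SRDX (0.43 ± 0.12, adjusted p = 0.032), a call lost without any 1 of the 4 libraries compared. The medians in the lines were 0.021, -0.06 and -0.0062.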

How the data were processed

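The deposited tables held raw counts per gene and, for the same genes, the authors' FPKM values. Per the submitters' processing notes, the tools were HISAT2 2.0.4 and HTSeq 0.6.1p1 and the genome build was TAIR10, and per the labels' protocols the libraries were strand-specific. The strand setting of the counting is not given in the sources used here. Deposited FPKM equalled count divided by gene length and 1 constant per library, at 0.905 to 1.11 of the count total.

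Counts were tested in R 4.3.3 with edgeR 4.0.16, in 1 fit over the 10 libraries with 1 coefficient per genotype. TMM factors ran from 0.884 to 1.082, low genes were removed with filterByExpr, and quasi-likelihood F-tests were adjusted by the Benjamini-Hochberg method over all 20334 tested genes at a threshold of 0.05. The standard error is the absolute log2 fold change divided by the square root of F, and log2 values for correlations used a prior count of 2. CPM used TMM-scaled library sizes of the deposited counts, 1 gene being compared between genotypes in CPM and different genes in FPKM. A count of 0 allows up to 3 counts, or 0.106 to 0.133 CPM by library, a limit for counting error alone, because without molecular identifiers a read need not be a separate molecule.

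All 10 members were named, with up to 4 genes per pathway list of smallest adjusted p in each main comparison, of which the text gives a part. AHA1, AHA2 and EXPA13 in pnet2_ab, and levels of genes in the lines, were added after their values were seen. The members and lists were chosen with earlier results of these data known. Alternatives were DESeq2 1.42.0, RLE scaling, no low-count filter, only the 2 groups compared, a replicate block, leaving out each library, and, chosen after seeing the data, the library sizes behind the authors' FPKM. The fit was tested on data simulated for pnet2_ab against wild type, with 200 genes set to change. In the real comparison 34% of the tested genes passed. Of genes with a true log2 change of 0.5, 34% passed, and of those with a change of 1, 74.7% passed. Of genes with no change, 0.0505% passed. A gene that did not pass may thus still differ. Promoters were read from the RefSeq TAIR10.1 assembly with Biopython 1.88. Its annotation and the authors' table agreed in chromosome and strand for 27998 of 27998 matched loci and in both ends for 6030, so gene positions are the authors' and promoter windows RefSeq's. No protein sequences were used here.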

Additional observations from a re-analysis of the deposited data

How the results depend on the processing

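With 1 library left out at a time, the genes called of 10 were 7 to 8 for pnet2_ab against wild type, 6 to 8, 5 to 8 and 3 to 5 for the lines labelled NTL6-SRDX, NTL9-SRDX and NTL12-SRDX against pnet2_ab, 3 to 4, 1 to 2 and 3 to 4 for these lines against wild type, and 2 to 4, 3 to 4 and 3 to 5 for NTL6-SRDX against NTL9-SRDX, NTL6-SRDX against NTL12-SRDX and NTL9-SRDX against NTL12-SRDX. Summed FPKM relative to wild type ran over 0.884 to 0.947 in pnet2_ab and over 0.97 to 1.04, 1.01 to 1.08 and 0.865 to 0.927 in the 3 lines. Values of members were counted once per gene, comparison and setting, over the 16 alternative settings and 10 comparisons. Of these, 38 lost and 29 gained a call, none that passed changed sign, and 33 changed sign where neither value passed. In 1500 the call and the sign stayed the same. EXPA15 in NTL6-SRDX against wild type alone gave 10 of the 38, and EXPA3 in NTL12-SRDX against wild type gave 9 of the 29. The cause was not tested. Replicate numbers did not pair the libraries: the correlations of same-numbered deviations over 10 pairs of groups ran from -0.038 to 0.032, and with the replicate block 7 of 10 genes passed in pnet2_ab against wild type, as without it. Among the members that block changed only the call of EXPA15 in NTL6-SRDX against wild type. Outside single libraries, list counts moved by over 1.5 times for proton pumps (2 by DESeq2 in NTL6-SRDX, 1 in the fit of 2 groups in NTL9-SRDX), growth factors in NTL12-SRDX (1 by DESeq2, 2 with no filter, 1 in the fit of 2 groups) and gibberellin genes there (1 in the fit of 2 groups), all against pnet2_ab. With 1 library left out, list counts in pnet2_ab against wild type ran over 0 to 1 for other alpha-expansins, 3 to 7 for cellulose genes and 1 to 3 for cell division genes. Against pnet2_ab they ran over 3 to 5 for beta-expansins and expansin-like genes, 2 to 4 for cellulose genes, 3 to 6 for growth factors, 2 to 5 for brassinosteroid genes and 2 to 6 for gibberellin genes in NTL6-SRDX. In NTL9-SRDX they ran over 1 to 3 for beta-expansins and expansin-like genes, 0 to 2 for proton pumps, 4 to 9 for growth factors and 2 to 5 for brassinosteroid genes. In NTL12-SRDX they ran over 1 to 2 for beta-expansins and expansin-like genes, 0 to 1 for pumps, growth factors and cell division genes and 0 to 2 for brassinosteroid genes. Every other list count stayed within 1.5 times. Depth limits the low genes of the lists, such as AHA4 and EXPA20, more than the members, whose lowest value was 13.7 CPM.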
